A study of Mus musculus with 6 samples.

Results

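A set of 38 genes that mark macrophages and Kupffer cells was followed through 6 RNA libraries made from cultured primary stellate cells of mouse liver, which are pericytes that store retinoids. The 38 genes were named as known markers and effectors of these phagocytes, but with earlier results of these data known. Shares of members set beside all genes below therefore do not come from an independently chosen list. Mouse symbols of the 38 genes were matched to the NCBI gene identifiers of the deposited tables. All 38 were listed, among 17909 genes listed in at least 1 library. They were kept in 7 groups by role: 7 Kupffer-restricted genes, 11 shared macrophage genes, 3 C1q subunits, 5 Fc receptors and ITAM adaptors, 2 subunits of the phagocyte NADPH oxidase, 6 pan-leukocyte genes and 4 lipid-associated or inducible receptors.

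Kupffer cells are the resident macrophages of the liver sinusoids, where they take up particles, aged red cells and complement-coated debris. Their survival depends on signalling through the CSF1 receptor, and the transcription factor PU.1, encoded by Spi1, sets up much of the gene programme that all macrophages share. A smaller set of genes, such as the lectin gene Clec4f, is largely restricted to Kupffer cells, whereas Lyz2, the C1q genes and the Fc receptor genes are expressed by many kinds of macrophage. Stellate cells lie next to Kupffer cells and are separated from them by density and by surface markers when they are prepared for culture.

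The series compared 2 genotypes in male C57BL/6 mice of 24 weeks. HAS2_Tg mice (replicates 4, 5 and 6) carried human HAS2 as a transgene under the alpha smooth muscle actin promoter, which is active in activated stellate cells and in smooth muscle. Has2_KO mice (replicates 7, 8 and 9) had floxed Has2 deleted by Cre recombinase under control of Lrat, a gene of stellate cells. Has2 makes hyaluronan, a matrix polysaccharide. Wild-type cells were not analysed here, and each difference below is between a transgenic and a knockout line. In both groups livers were perfused with collagenase and pronase, stellate cells were collected on a Nycodenz gradient, and liver macrophages were depleted with magnetic beads against Cd11b, the integrin encoded by Itgam. The cells attached for 4 h and were cultured for 14 h more with 10% FBS before collection at day 1. The labels do not say whether the libraries of a group came from separate animals, so p-values measure the spread between these libraries, which may be technical.

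Total expected counts, the authors' estimates of reads per gene, were between 11961726 and 12423220 per library. The targeted gene Has2 had 847, 889 and 835 counts in HAS2_Tg and 1 count in each Has2_KO library, and the human transgene was not measured apart from it. The libraries carried stellate cell genes in both groups: 14 stellate markers, among them Lrat, Des and Dcn, summed to 12270 to 14030 CPM in HAS2_Tg and to 9191 to 9810 CPM in Has2_KO, where CPM is the count scaled to library size after TMM normalisation.

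The macrophage genes were much lower in HAS2_Tg than in Has2_KO. Summed over the 38 genes, the level was 266.4, 264.5 and 241.0 CPM in HAS2_Tg and 1365, 1425 and 1465 CPM in Has2_KO, so the HAS2_Tg mean was 18.1% of the Has2_KO mean. Of these sums of CPM, which are not per length, 2 genes that other cell types also express, Gpnmb and Slc40a1, made up 90.05% to 90.48% in HAS2_Tg and 30.07% to 30.45% in Has2_KO. Without them the sums were 26.5, 25.2 and 23.8 CPM against 954.2, 991.0 and 1022 CPM, and HAS2_Tg stood at 2.55% of Has2_KO. Groups did not overlap for 37 of the 38 genes, each with its 3 transgenic libraries below its 3 knockout libraries, a pattern found in 22.7% of all listed genes. In bulk RNA, fewer macrophages and less RNA per macrophage cannot be told apart. In the same libraries 16 sinusoidal endothelial markers summed to 126.4 to 140.6 CPM in HAS2_Tg and to 1316 to 1405 CPM in Has2_KO, and their part in the result was not tested.

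The edgeR quasi-likelihood test was applied to all genes that passed a low-count filter, with Benjamini-Hochberg adjustment and a threshold of 0.05. Of 36 members tested, 35 were lower in HAS2_Tg, against 20.5% of the 13014 genes tested (40.7% were called in either direction), and Cx3cr1 was not called. The test called 0 members higher, 0 were higher at an unadjusted p under 0.05, and 0 were higher with DESeq2 or limma. Timd4 and Clec4e had too few reads to be tested. The filter bears on this count: 27 members, Timd4 and Clec4e among them, reached its minimum of 0.813 CPM in no transgenic library, so the 25 of these that were tested passed through Has2_KO alone. Of the 8 members that reached it in all 3 transgenic libraries (Lyz2, Ctss, Csf1r, Cd68, Cx3cr1, Slc40a1, Lcp1 and Gpnmb), 7 were lower, where 17.1% of all genes that reached it there were. Scaling by total counts in place of TMM moved the median log2 fold change of all genes from -0.01 to -0.18, and the log2 fold changes below are to be read against a shift of that size.

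**Figure D1:**
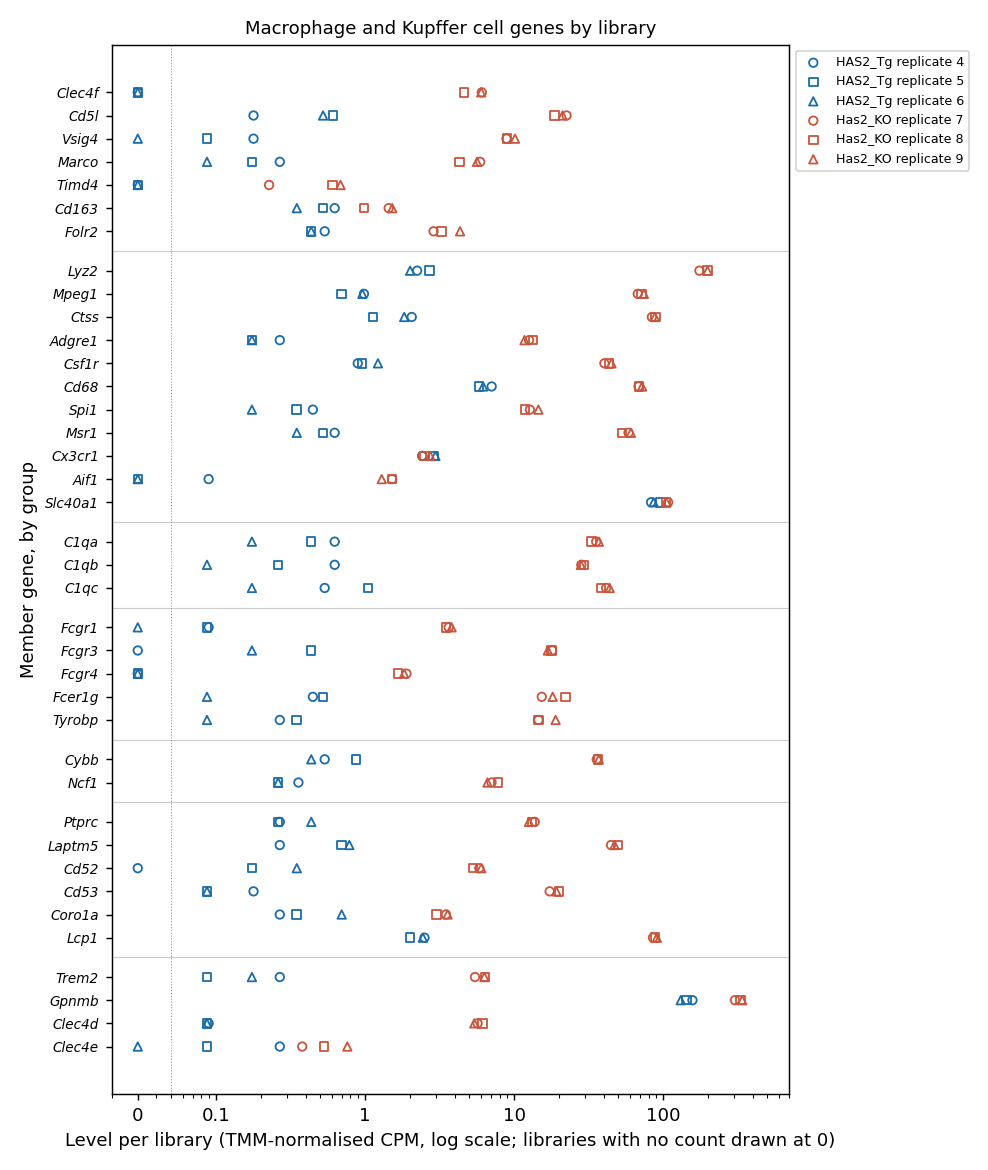
CPM of the 38 macrophage and Kupffer cell genes in each library, on a log axis, with 1 row per gene and 1 open symbol per library (HAS2_Tg in blue, Has2_KO in red, libraries with no count at 0). Symbols of the 2 groups lie apart in every row but that of Cx3cr1, and 3 genes (Clec4f, Timd4 and Fcgr4) have no count in HAS2_Tg.

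The size of the difference varied among the genes. In the ratio of group sums, which divides the summed counts of Has2_KO by those of HAS2_Tg after TMM scaling, 29 members were at 16-fold or more, 7 lay between 2 and 16, and 2, Cx3cr1 and Slc40a1, lay below 2. The 7 were Cd163, Folr2, Cd68, Coro1a, Gpnmb, Clec4e and Timd4, the last as a lower bound. A log2 fold change below -4 was found in 29 of the 36 tested members and in 2.49% of all genes tested, but genes that pass the filter through Has2_KO alone are prone to large negative values. Among the 8 members that reached the minimum in all 3 transgenic libraries, 4 (Lyz2, Ctss, Csf1r and Lcp1) were below -4, where 0.166% of all genes that reached it there were. The median log2 fold change of the tested members was -5.68, or -5.60 with the genes that had no count in HAS2_Tg at their bound, beside -0.01 for all genes tested.

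Promoter sequence was examined because most of these genes moved together and because Spi1 was one of them. RefSeq promoters (GRCm38.p6, 250 bases before to 50 after the start) matched 30 of the 38 members; Spi1, C1qa, Msr1, Tyrobp, Csf1r, Adgre1, Slc40a1 and Cd52 were not matched. The 6-base core of the PU.1 motif, GAGGAA, read on both strands, was present in 18 of the 30 (60%), in 28.3% of all 32851 promoters and in 26.6% of the 10341 promoters of tested genes. The longer form GAGGAAGT, which contains the core, was present in 4 (13.3%; C1qc, Cd53, Ctss and Fcgr4) and in 3.2% of all promoters. The core was present in 16 of 22 members at 16-fold or more and in 2 of the other 8, Cd68 and Clec4e. Members at 16-fold or more without the core were Lyz2, Mpeg1, Clec4f, Lcp1, Ncf1 and Fcer1g. Timd4, which lacked the core, was counted among the other 8, although its ratio is only a lower bound and may exceed 16. The list was chosen with earlier results known, and whether the core goes with the size of the difference was not tested. All of these are matches of letters and say nothing of binding, and the part of PU.1 in the differences was not tested. Of the 30, 4 promoters are shown. Cd53 had the largest ratio measured against a group with counts, and Fcgr4 had no count in HAS2_Tg. Gpnmb and Cx3cr1 differed least among members with a matched promoter. Clec4f and Timd4 also had no count in HAS2_Tg, but they lacked the core and are not shown. The 4 shown therefore do not represent the 30. Capitals mark the core or its reverse complement, TTCCTC.
Cd53, chr3:106790100-106790399, minus strand: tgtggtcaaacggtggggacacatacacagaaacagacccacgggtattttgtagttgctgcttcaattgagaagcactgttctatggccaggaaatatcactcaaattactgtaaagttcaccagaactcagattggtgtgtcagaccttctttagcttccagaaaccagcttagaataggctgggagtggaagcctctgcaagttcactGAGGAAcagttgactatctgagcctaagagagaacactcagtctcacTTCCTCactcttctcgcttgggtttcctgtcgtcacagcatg
Fcgr4, chr1:171018676-171018975, plus strand: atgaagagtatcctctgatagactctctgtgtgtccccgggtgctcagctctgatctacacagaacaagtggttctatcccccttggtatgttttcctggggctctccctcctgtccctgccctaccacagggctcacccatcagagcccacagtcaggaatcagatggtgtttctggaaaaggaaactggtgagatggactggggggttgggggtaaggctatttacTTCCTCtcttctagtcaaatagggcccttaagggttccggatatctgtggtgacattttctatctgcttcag
Gpnmb, chr6:49036268-49036567, plus strand: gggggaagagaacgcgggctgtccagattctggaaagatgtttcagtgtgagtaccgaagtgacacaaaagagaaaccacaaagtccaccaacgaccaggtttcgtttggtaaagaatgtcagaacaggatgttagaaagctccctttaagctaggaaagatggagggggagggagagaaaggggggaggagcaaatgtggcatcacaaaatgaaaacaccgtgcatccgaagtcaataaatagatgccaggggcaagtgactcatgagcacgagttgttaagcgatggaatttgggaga
Cx3cr1, chr9:120068247-120068546, minus strand: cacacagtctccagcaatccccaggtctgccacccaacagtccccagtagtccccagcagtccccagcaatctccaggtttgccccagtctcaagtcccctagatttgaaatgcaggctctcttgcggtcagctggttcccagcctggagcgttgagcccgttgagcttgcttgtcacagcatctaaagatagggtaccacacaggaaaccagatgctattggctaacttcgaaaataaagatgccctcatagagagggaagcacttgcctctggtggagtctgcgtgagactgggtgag
Cd53 held the core on both strands, 39 bases before the start and 8 bases after it, the second within the long form. Fcgr4 held 1 core within a long form, 22 bases before the start. Gpnmb and Cx3cr1 held none in this window.

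All 7 Kupffer-restricted genes had at most 17 counts over the 3 transgenic libraries, and they differed in how high they stood in Has2_KO. The name of this group is a label of the list, and restriction of its genes to Kupffer cells was not tested. Clec4f, a lectin found on Kupffer cells, had no count in any transgenic library and 80, 61 and 79 counts in Has2_KO, which made it at least 63.3-fold lower when 3 counts were allowed to the transgenic group as a whole. Cd5l, a secreted scavenger-receptor protein, had 2, 7 and 6 counts against 296, 246 and 277. Its level was 0.438 ± 0.228 against 20.7 ± 1.95 CPM (SD, n = 3), a log2 fold change of -5.53 (SE 0.23; edgeR adjusted p = 6.59e-11). The gap between the groups of Cd5l was far wider than the spread within either.

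Vsig4, the complement receptor CRIg, had 2, 1 and 0 counts in HAS2_Tg and 117, 118 and 133 in Has2_KO, a ratio of 105.9 with a 95% exact interval of 35.96 to 515.9. Marco, a class A scavenger receptor, had 3, 2 and 1 counts against 78, 57 and 74 (log2 fold change -4.83, SE 0.35). Timd4, the phosphatidylserine receptor TIM-4 of long-lived Kupffer cells, was low in both groups, with no count in HAS2_Tg and 3, 8 and 9 counts in Has2_KO. Its difference was at least 5.76-fold against the floor, and with no low-count filter it passed edgeR's test (adjusted p = 0.000759). Every knockout library held reads of all 5 genes, and Timd4 held the fewest.

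Cd163 and Folr2 had the smallest ratios among the Kupffer-restricted genes with counts in HAS2_Tg; the bound of Timd4 does not place it above or below Folr2. Cd163, the haemoglobin scavenger receptor, had 0.627, 0.523 and 0.349 CPM in HAS2_Tg and 1.44, 0.985 and 1.52 CPM in Has2_KO. That was a ratio of 2.64 (95% exact interval 1.5 to 4.87) and a log2 fold change of -1.38 (SE 0.37; edgeR adjusted p = 0.00839), which the DESeq2 Wald test did not call (adjusted p = 0.0725). Folr2, folate receptor beta, had 6, 5 and 5 counts against 38, 43 and 57, a ratio of 7.45 (4.43 to 13.4). The groups of both genes did not overlap, and their intervals lay below that of Cd5l, 28.4 to 84.6. As a share of all members but Gpnmb and Slc40a1, the Kupffer-restricted genes made up 6.76%, 7.27% and 5.86% in HAS2_Tg and 5.02%, 4.17% and 4.84% in Has2_KO. The direction of this share rested on Cd163 and Folr2: counted without them, a choice made after seeing the data, it was 2.37%, 3.46% and 2.56% against 4.57%, 3.75% and 4.27%. Without Cd163 and Folr2, the summed Kupffer-restricted CPM in HAS2_Tg was 1.70% of that in Has2_KO, and with them 3.62%.

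Of the 11 shared macrophage genes, 10 were lower in HAS2_Tg. Lyz2, which encodes lysozyme and is a general myeloid gene, had 2.24, 2.70 and 2.01 CPM against 174.9, 197.4 and 198.2 CPM, a log2 fold change of -6.35 (SE 0.12; edgeR adjusted p = 2.31e-14). Mpeg1, the pore-forming perforin-2, had 11, 8 and 11 counts against 889, 947 and 973 (-6.32, SE 0.14). Ctss, the lysosomal protease cathepsin S, had 23, 13 and 21 counts against 1105, 1172 and 1155 (-5.69, SE 0.14). In each of these genes the transgenic libraries lay far below the knockout libraries.

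The receptors and the regulator of the lineage showed differences of the same order. Csf1r, the receptor for CSF1, had 10, 11 and 14 counts in HAS2_Tg and 531, 573 and 590 in Has2_KO, a log2 fold change of -5.37 (SE 0.15). Adgre1, the F4/80 antigen, had 3, 2 and 2 counts against 166, 177 and 154 (-5.87, SE 0.25). Spi1, which encodes PU.1, had 5, 4 and 2 counts against 168, 156 and 191 (-5.29, SE 0.25), and no pair of libraries from different groups overlapped. Msr1, the class A scavenger receptor, went furthest among the shared genes with counts in every library, at 7, 6 and 4 against 771, 700 and 797 counts (ratio 115.2, 95% exact interval 71.8 to 198.1). Aif1, the actin-binding protein IBA1, had 1 count in HAS2_Tg and 20, 20 and 17 in Has2_KO (ratio 49.2, interval 8.49 to 1978).

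Cd68, Slc40a1 and Cx3cr1 kept more of their level. Cd68, a lysosomal glycoprotein, had 7.08, 5.84 and 6.2 CPM in HAS2_Tg and 68.3, 68.7 and 72.1 CPM in Has2_KO, a log2 fold change of -3.45 (SE 0.10; edgeR adjusted p = 1.49e-12). Slc40a1, which encodes the iron exporter ferroportin, had 82.8, 96.2 and 86.2 CPM against 107.9, 104.6 and 105.0 CPM. Its groups lay apart by less than the range among the transgenic libraries, and its log2 fold change was -0.26 (SE 0.08; edgeR adjusted p = 0.0154). Slc40a1 was no longer called when Has2_KO replicate 7 was left out (edgeR adjusted p = 0.0675) or when replicate 9 was (0.0521), and leaving out single libraries gave adjusted p between 0.00847 and 0.0675. With total counts the log2 fold change of Slc40a1 was -0.43. Cx3cr1, the fractalkine receptor, was the sole member whose groups overlapped, with 2.42, 2.88 and 2.97 CPM against 2.43, 2.50 and 2.74 CPM. Its log2 fold change was 0.11 (SE 0.21; edgeR adjusted p = 0.714) and turned to -0.07 with total counts, uncalled in both. The 95% exact interval of its ratio was 0.694 to 1.24, so ratios within that span were compatible with the counts. This interval covers counting error alone and leaves out the spread between libraries.

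The 3 C1q genes, which encode the chains of the complement recognition protein and lie side by side on chromosome 4 from 136880126 to 136898844 (GRCm38), moved together. C1qa had 7, 5 and 2 counts against 468, 436 and 486 (log2 fold change -6.39, SE 0.20; edgeR adjusted p = 3.16e-12). C1qb had 7, 3 and 1 counts against 372, 388 and 368 (-6.42, SE 0.23). C1qc had 6, 12 and 2 counts against 545, 507 and 574 (-6.11, SE 0.22). Replicate 6 was the lowest transgenic library for each chain, and the summed C1q level was 1.79, 1.74 and 0.437 CPM in HAS2_Tg and 105.2, 100.8 and 108.9 CPM in Has2_KO. In Has2_KO the chains were at like levels per length, with FPKM (fragments scaled by gene length and library size, from the deposited tables) of 35.2 for C1qa, 29.1 for C1qb and 41.9 for C1qc.

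Fc receptors bind the constant part of antibodies and signal through ITAM adaptors, of which Fcer1g and Tyrobp were included. All 5 genes of this group passed the test as lower in HAS2_Tg, with a median log2 fold change of -6.03 (-5.73 with Fcgr4 at its bound). Fcgr1, the high-affinity IgG receptor, had 1, 1 and 0 counts against 48, 46 and 50 (ratio 62.2, 95% exact interval 16.9 to 518.2). Fcgr3 had 0, 5 and 2 counts against 237, 235 and 221 (log2 fold change -6.35, SE 0.30), and Fcgr4 had none against 25, 22 and 24, at least 20.4-fold lower. The adaptor Fcer1g had 5, 6 and 1 counts against 202, 292 and 238 (-5.68, SE 0.29). Tyrobp, known as DAP12, had 3, 4 and 1 counts against 192, 192 and 249 (-6.03, SE 0.28). The adaptors varied more within Has2_KO than the receptors did, with replicate 8 highest for Fcer1g and replicate 9 for Tyrobp. Fcgr4, Fcgr3 and Fcer1g lie between positions 171018926 and 171234349 of chromosome 1 (GRCm38).

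The oxidase subunits Cybb and Ncf1, parts of the enzyme with which phagocytes make superoxide, were both lower. Cybb, the catalytic gp91-phox chain, had 6, 10 and 5 counts in HAS2_Tg and 472, 484 and 485 in Has2_KO (log2 fold change -5.87, SE 0.17; edgeR adjusted p = 1.27e-12). Ncf1, the cytosolic p47-phox organiser, had 4, 3 and 3 counts against 93, 103 and 87 (-4.56, SE 0.27). Among partner genes of the enzyme, Ncf4, which encodes p40-phox, had 2 counts against 172 in sum (ratio 74.3, 95% exact interval 20.3 to 618.1). Rac2, the GTPase of blood cells, had -2.10 (SE 0.21). Cyba, the p22-phox chain that many cells express, was 68.4 ± 9.45 against 78.1 ± 3.70 CPM (log2 fold change -0.19, edgeR adjusted p = 0.125), and Rac1, a GTPase of most cells, was 538.6 ± 49.5 against 494.1 ± 19.1 CPM (0.12, adjusted p = 0.243). Neither result was stable. Cyba passed with total counts (-0.37), without HAS2_Tg replicate 4 (-0.31) and with each limma fit. Rac1 turned to -0.05 with total counts, uncalled, and was called higher without HAS2_Tg replicate 6 (0.20).

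The 6 pan-leukocyte genes were all lower in HAS2_Tg. Ptprc, the common leukocyte antigen CD45, had 3, 3 and 5 counts against 181, 174 and 165 (log2 fold change -5.31, SE 0.23; edgeR adjusted p = 1.14e-10). Cd53, a tetraspanin, had 2, 1 and 1 counts against 228, 263 and 252, with a ratio of 160.4 (95% exact interval 62.4 to 590.2). Laptm5, a lysosomal membrane protein of blood cells, had 3, 8 and 9 counts against 588, 655 and 618 (-6.30, SE 0.18). Lcp1, the actin-bundling L-plastin, had 28, 23 and 28 counts against 1124, 1166 and 1188 (-5.24, SE 0.12). Cd52, a small glycoprotein, had 0, 2 and 4 counts against 77, 70 and 79 (-4.95, SE 0.38). Coro1a, the actin regulator coronin 1A, differed least, with 3, 4 and 8 counts against 46, 40 and 47 (-2.91, SE 0.32). For these genes, low transgenic libraries were not always the same ones: replicate 4 was lowest for Laptm5, Cd52 and Coro1a and highest for Cd53 and Lcp1.

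Among the lipid-associated and inducible receptors, Gpnmb stood apart. Gpnmb, a transmembrane glycoprotein of lysosome-rich macrophages that other cell types also express, had 157.0, 143.1 and 131.0 CPM in HAS2_Tg and 302.4, 329.3 and 338.2 CPM in Has2_KO. Its log2 fold change was -1.17 (SE 0.08; edgeR adjusted p = 3.20e-08). The groups lay apart by much more than either spread. Trem2, a lipid receptor that signals through Tyrobp, had 3, 1 and 2 counts against 72, 84 and 83 (-5.03, SE 0.32). The neighbouring lectin genes Clec4d and Clec4e, on chromosome 6 from 123262107 to 123289871 (GRCm38), differed in level. Clec4d had 1 count in each transgenic library and 75, 81 and 71 in the knockout libraries (ratio 65.3, 95% exact interval 22.1 to 319.2). Clec4e, the receptor Mincle, was low in both groups, with 3, 1 and 0 counts against 5, 7 and 10. Its ratio was 4.75 (1.61 to 18.96), and with no low-count filter it passed edgeR's test (adjusted p = 0.0267).

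**Figure D2:**
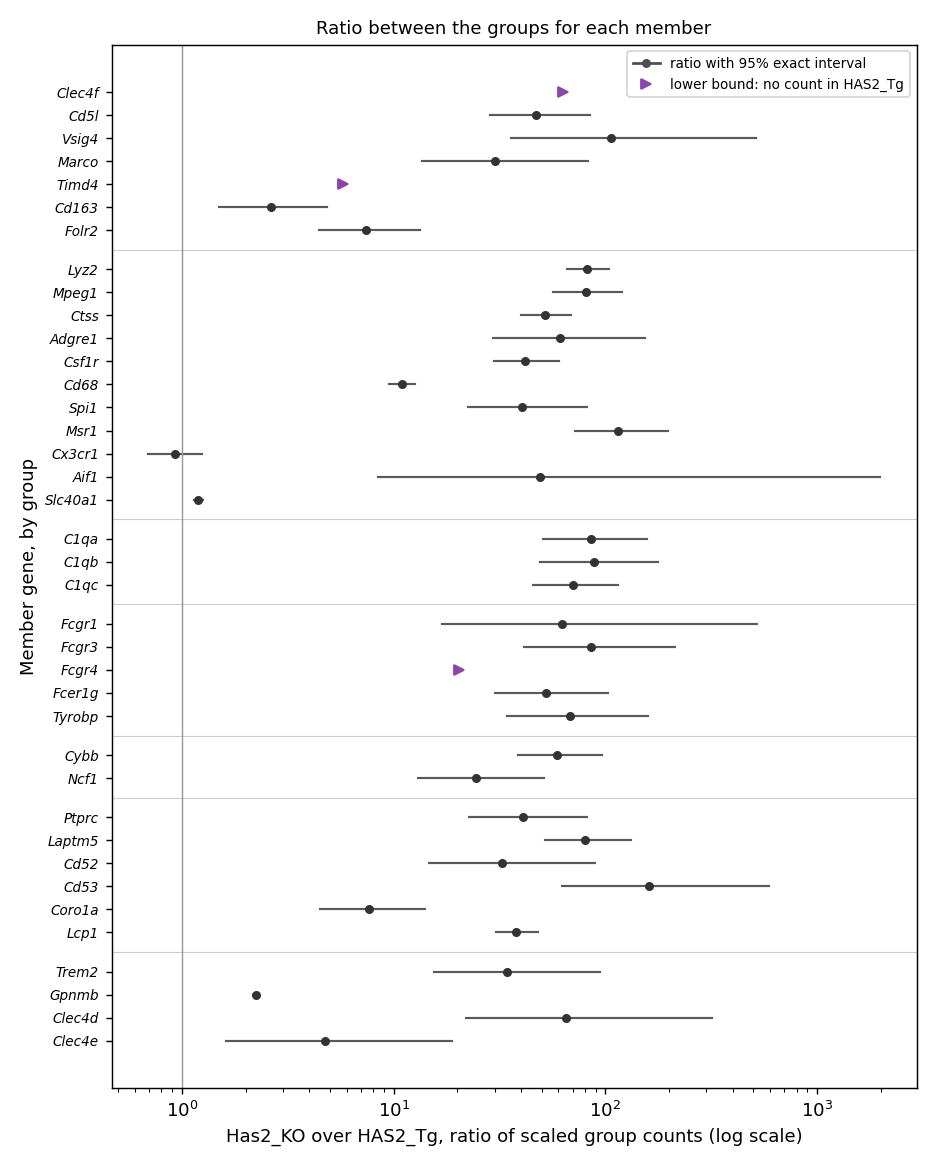
Ratio of summed counts, Has2_KO over HAS2_Tg, for the 38 genes on a log axis, by group of genes, with 95% exact intervals as bars; triangles mark lower bounds for the 3 genes without a count in HAS2_Tg. The ratio is 16 or more for 29 genes, and Cx3cr1, Slc40a1, Gpnmb and Cd163 lie nearest to 1.

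Levels of different genes were compared per length, in FPKM. In Has2_KO, Lyz2 led with a mean of 194.7, followed by Gpnmb at 89.8, Cd68 at 75.0, Ctss at 68.0 and C1qc at 41.9. In HAS2_Tg the order was Gpnmb at 35.4, Slc40a1 at 24.5, Cd68 at 6.07, Lyz2 at 2.10 and Ctss at 1.16. Of the 38 members, 34 had an FPKM of at least 1 in every knockout library and 4 (Gpnmb, Slc40a1, Cd68 and Lyz2) in every transgenic library. The ends of the knockout order were Timd4 and Clec4e, at 0.247 and 0.233. Slc40a1 moved from rank 7 in Has2_KO to rank 2 in HAS2_Tg, and Cx3cr1 from 35 to 6, although the FPKM of Cx3cr1 was 0.717 and 0.683 in the respective groups.

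**Figure D3:**
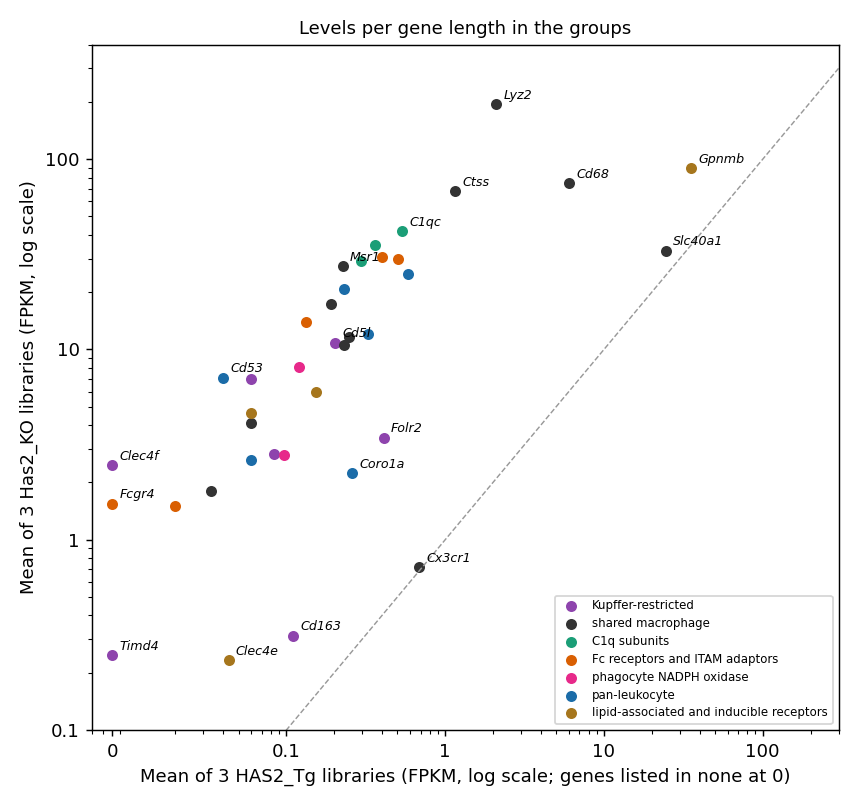
Mean FPKM of each gene over the 3 HAS2_Tg libraries (x axis) and the 3 Has2_KO libraries (y axis), both on log axes with 0 at the edge, coloured by gene group, with a dashed line of equal levels. Cx3cr1 and Slc40a1 lie near the line, and the other genes lie above it, on the Has2_KO side.

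Within groups the spread of the members was wider in HAS2_Tg, where fewer of their reads were counted. HAS2_Tg libraries also differed more from each other over all genes with 20 or more counts in the pair, most in the pairs with replicate 4. The cause of the wider spread was not tested. The coefficient of variation over 3 libraries had a median of 45.01% in HAS2_Tg (range 1.53% to 173.2% over the members with a count) and of 6.78% in Has2_KO (1.60% to 48.3%). The largest value in Has2_KO belonged to Timd4, with 20 counts over the group. Among 33 members with counts in HAS2_Tg, Gpnmb and Slc40a1 aside, replicate 4 was the highest library for 20, replicate 5 for 7 and replicate 6 for 6. Among 36 in Has2_KO, replicate 9 was the highest for 20, replicate 8 for 9 and replicate 7 for 7. The counts of Lyz2, Cd163, Cx3cr1, Fcgr3 and Ncf1 were not whole in at least 4 libraries, as happens where reads are divided among similar sequences, and the values of these 5 genes are uncertain to that extent.

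Itgam encodes the antigen to which the depletion beads bind. It had 2, 0 and 1 counts in HAS2_Tg and 268, 301 and 303 in Has2_KO, which is 0.179, 0 and 0.0873 against 20.4, 22.8 and 23.1 CPM (ratio 251.0, 95% exact interval 85.6 to 1219). The knockout libraries thus carried Itgam RNA although beads against Cd11b had been used on both groups, and how complete the depletion was in each preparation was not tested. Of 9 tested integrin and monocyte genes, 8 were lower in HAS2_Tg, where 20.5% of all genes tested were. Several of the 8, Itgam and Itgax among them, were below the filter's minimum of 0.813 CPM in every transgenic library and passed it through Has2_KO alone. Plac8 was not called (log2 fold change -0.22, edgeR adjusted p = 0.148). It passed, however, with total counts (-0.40), without HAS2_Tg replicate 4 (-0.37) and with each limma fit. Itgax, which encodes CD11c, had 1 count in each transgenic library and 1132 over the knockout group (ratio 325.8, interval 111.2 to 1582). Clec7a, the beta-glucan receptor dectin-1, was 1.2 ± 0.21 against 110.6 ± 4.88 CPM (-6.51, SE 0.13). Itgb2, the beta chain that pairs with Itgam and Itgax, had -4.99 (SE 0.18). Sirpa, an inhibitory receptor that is not confined to myeloid cells, fell by 2.13 on the log2 scale (SE 0.08). The monocyte receptor Ccr2 had 7 counts against 25 over the groups and was not tested.

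Colony-stimulating factors, the growth factors of macrophages, were lower together with their receptors. All 7 tested genes of this list were called (median log2 fold change -1.26), where 20.5% of all genes tested were lower. Csf2rb and Csf2rb2 were among those below the filter's minimum of 0.813 CPM in every transgenic library. Csf1, the main ligand of Csf1r and a product of mesenchymal cells, was 1396 ± 30.1 CPM in HAS2_Tg and 2564 ± 57.8 CPM in Has2_KO (-0.88, SE 0.07; edgeR adjusted p = 2.03e-07). Il34, the second ligand, was 25.6 ± 3.97 against 39.3 ± 1.07 CPM (-0.62, SE 0.11). The receptor chain Csf2rb had -6.24 (SE 0.22), its relative Csf2rb2 -4.52 (SE 0.22) and Csf2ra -1.26 (SE 0.10).

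Transcription factors of macrophages moved both ways. Of 15 tested, 10 were lower in HAS2_Tg, 4 were higher and Rara was not called (median log2 fold change -0.80). Of all genes tested, 20.5% were lower and 20.2% were higher. Maf, a factor of resident macrophages, had -1.18 (SE 0.09), Irf8, a myeloid regulator, -1.23 (SE 0.10), and Tfec, a relative of Mitf, -2.14 (SE 0.19). Ikzf1, a factor of blood cells, had 2 counts against 152 over the groups (ratio 65.6, 95% exact interval 17.9 to 546.8). Spic, a regulator of iron-recycling macrophages, had no count in HAS2_Tg and 24 in Has2_KO, at least 6.91-fold lower, and was not tested. Klf4 (0.73, SE 0.08) was higher in HAS2_Tg. Id3 (0.41), Zeb2 (0.37) and Rxra (0.27) were higher too, but none of these 3 passed with total counts. The call of Zeb2 also ended without HAS2_Tg replicate 5 (edgeR adjusted p = 0.0512) or Has2_KO replicate 8 (0.068), and that of Rxra without Has2_KO replicate 7 (0.0948). Factors such as Zeb2 and Klf4 are also expressed outside macrophages.

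Kinases and adaptors downstream of the ITAM receptors were lower in 11 of 12 cases (median log2 fold change -4.16), where 20.5% of all genes tested were. Several of them, Fyb among them, were below the filter's minimum of 0.813 CPM in every transgenic library and passed it through Has2_KO alone. Syk, the kinase recruited by phosphorylated ITAMs, had -3.67 (SE 0.20; edgeR adjusted p = 1.77e-09), Inpp5d, the phosphatase SHIP1, -4.10 (SE 0.19) and the adaptor gene Fyb -4.86 (SE 0.25). Lyn, a Src-family kinase, was 52.0 ± 3.66 against 57.2 ± 1.95 CPM and was not called (-0.14, edgeR adjusted p = 0.194). It passed, however, with total counts at -0.31 and with each limma fit. Close relatives of the members were lower in 5 of 5 cases, against the same 20.5%. All 5 lay below the filter's minimum of 0.813 CPM in every transgenic library, so they were tested through Has2_KO alone. Lyz1, the neighbour of Lyz2 on chromosome 10, had 1 count against 522 over the groups (ratio 450.7, 95% exact interval 80.5 to 17840), and Clec4n, the neighbour of Clec4d, 1 against 418 (ratio 360.9, interval 64.4 to 14290). Fcgr2b, the inhibitory IgG receptor, which sinusoidal endothelium also carries, had -8.38 (SE 0.23).

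Markers of other liver cells moved with the macrophage genes. All 16 sinusoidal endothelial markers were lower in HAS2_Tg (median log2 fold change -5.73), where 20.5% of all genes tested were. Several of them, Mrc1 and Fcgr2b among them, were below the filter's minimum of 0.813 CPM in every transgenic library and passed it through Has2_KO alone. The endothelial cadherin gene Cdh5 was 1.76 ± 0.47 against 401.9 ± 17.5 CPM, the mannose receptor gene Mrc1 had -8.01, and no endothelial marker was without counts in HAS2_Tg. In bulk RNA the cell type that gave the reads of Mrc1 and other markers cannot be told. Fcgr2b and Clec4g were counted both here and among the close relatives of the members, so these lists are not independent. Of 8 tested hepatocyte markers 7 were lower, against the same 20.5%, and albumin, Alb, was 0.878 ± 0.307 against 23.4 ± 4.44 CPM. All 15 listed hepatocyte markers summed to 24.1 to 25.5 CPM in HAS2_Tg and 62.1 to 80.1 CPM in Has2_KO. Most of the HAS2_Tg sum came from Trf, at 22.08 ± 0.774 against 25.55 ± 2.63 CPM, so the sums understate the difference of the other hepatocyte markers. Serpina1c had no count in HAS2_Tg and 103 in Has2_KO, and Apoc3 none against 14, while Hnf4a (0 against 1) and Cps1 (2 against 3) were near 0 in both groups. Trf was not called, although it passed as lower with total counts (-0.38) and with each limma fit. The part of hepatocyte RNA in the differences of the macrophage genes was not tested.

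Markers of other blood cells differed less in their sums than the sinusoidal endothelial markers did. The 6 neutrophil markers measured summed to 28.8 to 33.5 CPM in HAS2_Tg and 33.4 to 36.6 CPM in Has2_KO, of which Cxcr2, a chemokine receptor, made up most (log2 fold change 0.03, edgeR adjusted p = 0.84). The neutrophil genes S100a8, Elane and Camp had no count in HAS2_Tg and 4, 2 and 3 counts over Has2_KO, whereas Mmp8, a neutrophil collagenase, had 2 against 146 (ratio 63.0, 95% exact interval 17.1 to 525.4). T and NK cell markers summed to 0.786 to 1.25 CPM against 4.01 to 4.27 CPM, B cell markers to 3.75 to 4.03 against 7.12 to 9.27 CPM and dendritic cell markers to 11.2 to 12.6 against 13.8 to 14.9 CPM. Most of the B cell sum came from Cd22, and most of the dendritic cell sum from Zbtb46 and Xcr1, which were not called. Only 1 T and NK cell marker, 1 B cell marker and 3 dendritic cell markers had enough reads to be tested. In each of the T and NK, B and dendritic cell lists 1 gene was called, Il7r, Cd22 and Clec9a, and each was lower in HAS2_Tg. Il7r had 3 counts against 87 over the groups (ratio 25.0, 95% exact interval 8.29 to 123.8). Clec9a had 1 count against 96 (ratio 82.9, interval 14.5 to 3308). In the other direction, 11 of 14 stellate cell markers were higher in HAS2_Tg, where 20.2% of all genes tested were. The other 3 (Reln, Ngfr and Gfap) were not called, and Lrat was at 1.98 (SE 0.08). With total counts and with each limma fit 9 were higher, Dcn and Col3a1 losing their calls, and without HAS2_Tg replicate 5 Gfap was called higher too. The test called 0 stellate markers lower, as did an unadjusted p under 0.05, and 1, Ngfr, was called lower with total counts (-0.30) and with limma.

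**Figure D4:**
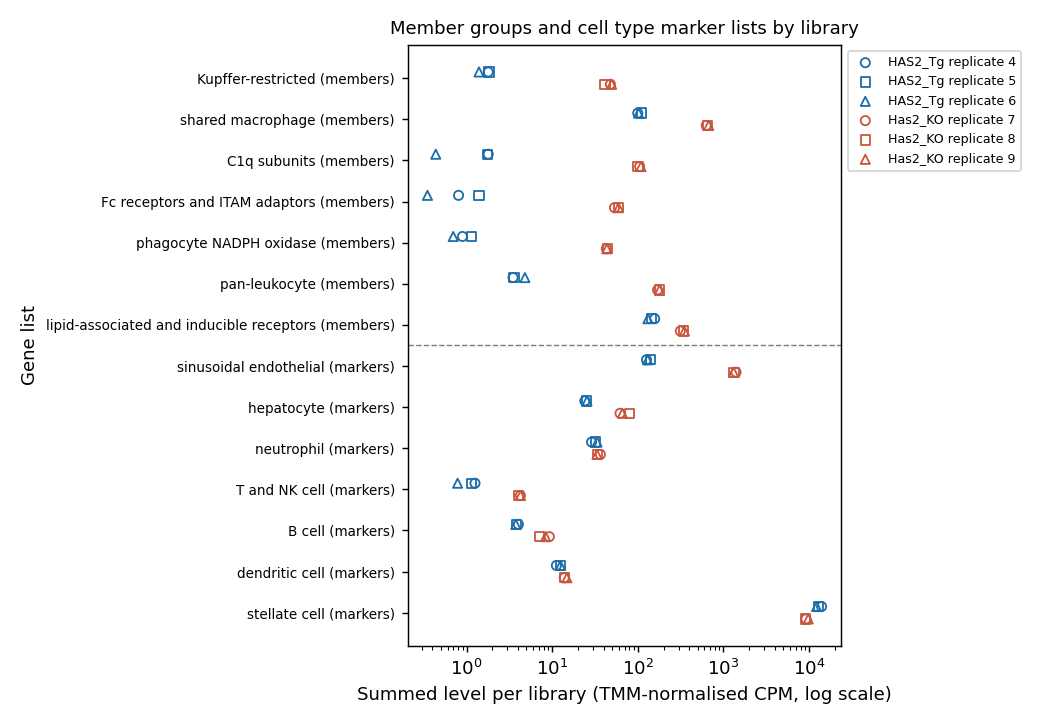
Summed CPM per library, on a log axis, of the groups of macrophage genes and of the marker lists of other cell types, with 1 open symbol per library (HAS2_Tg in blue, Has2_KO in red). All 7 groups of macrophage genes and the endothelial markers lie lower in HAS2_Tg, neutrophil markers lie close together, and stellate cell markers lie higher in HAS2_Tg.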

How the data were processed

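There were 6 deposited tables, 1 per library, which gave expected counts and FPKM values by NCBI gene identifier, per the file headers. An expected count is the authors' estimated number of reads of a gene, not always a whole number, and the FPKM values are the authors' fragments scaled by gene length and library size, deposited to 2 decimals. RSEM and the mm10 build were used, per the submitters' processing notes, and the aligner and versions are not given in the sources used here. The tables list no 0, so a gene absent from a library was set to 0 (12658 values). Of 17909 identifiers 17857 had a symbol in the GRCm38 gene tables used here (mm10 is another name of that assembly).

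The 38 genes and all other lists were chosen with earlier results of these data known. Expected counts were rounded, filtered with filterByExpr, TMM-normalised and given to edgeR (glmQLFit, robust, and glmQLFTest, a quasi-likelihood test) with both groups, two-sided, with Benjamini-Hochberg adjustment over 13014 genes at 0.05. The contrast was HAS2_Tg minus Has2_KO. Standard errors (SE) were derived from the F statistic, as |log2 fold change| over its square root. Ratios of group sums used TMM-adjusted totals with 95% exact conditional intervals, and a group without counts was set to a floor of 3 counts over the group. These intervals and floors describe counting error alone, as reads lacked molecular identifiers. Replicates were compared pairwise over genes with 20 or more counts in the pair. Chi-square divided by its degrees of freedom was 6.24 to 31.5 within HAS2_Tg and 2.31 to 3.17 within Has2_KO. In HAS2_Tg it was 22.8 and 31.5 for the pairs with replicate 4, and 6.24 for replicates 5 and 6. All pairs differed by more than sampling noise, so each replicate counts as 1 library.

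All 38 genes are reported. Of the other lists, the rule took Itgam, up to 3 tested genes per list by adjusted p and genes that moved against their list; 1 gene that the rule takes is not reported here. Sirpa, Ccr2, Csf1, Il34, Tfec, Spic, Clec4g, Serpina1c, Apoc3, Hnf4a, Cps1, S100a8, Elane and Camp were named after their values were seen. Alternatives were DESeq2 size factors, total counts, DESeq2's own Wald test, limma with a pseudocount of 1 or 0.1 added to the FPKM before taking log2 (genes reaching an FPKM of 1 in 3 libraries, and without that filter), no low-count filter, a mean of at least 5 CPM, an adjusted p of 0.01, sums without named genes, and each library left out. On simulated counts with 12865 genes tested, the test recovered 69.4% of genes changed 1.5-fold, 84% at 2-fold and 100% at 4-fold and 32-fold, with 10 false calls among 185. Changed genes, up or down at random, were 49 or 50 tested at each fold, whereas 40.7% of all genes tested here were called. A shift of many genes was not simulated, so these rates may not hold for the real libraries. Tables were joined in Python 3.11.15 (numpy 2.4.6, pandas 2.3.3), intervals came from scipy 1.17.1 and figures from matplotlib 3.10.9. Fits ran in R 4.3.3 with DESeq2 1.42.0, edgeR 4.0.16 and limma 3.58.1.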

Additional observations from a re-analysis of the deposited data

How the results depend on the processing

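Of 486 refits of single members, 483 kept their direction and side of the threshold; the other 3 were Cd163 with the DESeq2 Wald test and Slc40a1 without Has2_KO replicate 7 or 9. The number of members lower in HAS2_Tg was 35, fell to 22 with a mean of at least 5 CPM, which tests fewer genes, and to 7 among the members that reach the filter's CPM in all 3 transgenic libraries, an alternative chosen after seeing the data. With a mean of at least 5 CPM, lower calls went from 44 to 29 among the other pathway genes and from 27 to 15 among markers of other cells. Higher calls among the pathway genes went from 4 to 1 with total counts and with each limma fit, and to 2 at an adjusted p of 0.01. Stellate markers called lower went from 0 to 1 with total counts and with limma on log2(FPKM + 1) and log2(FPKM + 0.1).

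As a percentage of Has2_KO, the summed level of all members in HAS2_Tg was 18.1%, and 16.1% with total counts, 9.08% in FPKM and 2.31% without Slc40a1, Gpnmb, Cd68, Ctss and Lyz2. For all but the Kupffer-restricted genes it was 18.6%, and 16.5% with total counts and 9.28% in FPKM. For all but Slc40a1 and Gpnmb it was 2.55%, and 2.26% with total counts and 2.25% in FPKM. For the Kupffer-restricted genes it was 3.62%, and 1.70% without Cd163 and Folr2. The mean Kupffer-restricted share of the members but Gpnmb and Slc40a1 was 1.95 percentage points higher in HAS2_Tg, and reversed to -1.40 without Cd163 and Folr2, an alternative also chosen after seeing the data. The shift with total counts follows from the scaling and that without named genes from their removal, and the cause of the shift in FPKM was not tested.

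No paired analysis was possible because the groups share no replicate numbers. Depth limits the members with 3 or fewer counts in HAS2_Tg, whose fold is known only as a bound or within a wide interval, and 3 libraries per group from lines without a wild-type control limit each comparison.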
